A study of Mus musculus with 36 samples.

Results

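A group of 10 genes of the amino acid and stress response that centres on the transcription factor ATF4 were followed through all 36 RNA-seq libraries of the series: Atf4, Atf3, Ddit3, Asns, Trib3, Chac1, Slc38a2, Slc7a11, Slc7a5 and Psat1. The 10 symbols were picked by name with results of these data already known, so that their levels and treatment effects are given as a description and with no p-value of their own. They matched 11 of the 54347 rows of the gene-level count table, because Ddit3 has a pair of Ensembl identifiers, of which ENSMUSG00000116429 had a count of 0 in all libraries and ENSMUSG00000025408 was used. All 10 genes were among the 15340 that passed the filter on low counts. The libraries came from 4 kinds of primary mouse cells: adipocytes differentiated from the stromal vascular fraction of inguinal fat of C57Bl/6 males, with 3 to 4 animals pooled, macrophages grown from bone marrow and skeletal myotubes grown from hindlimb myoblasts of males of that strain, and hepatocytes of C57BL/6NHsd males isolated by liver perfusion. Adipocytes and macrophages were kept in DMEM with fetal serum, myotubes in Ham's medium with horse serum and hepatocytes in Williams medium. Each kind of cell received PBS as control, 5 mM β-hydroxybutyrate (βOHB, a ketone body) or 5 mM butyrate (a short-chain fatty acid of bacterial origin) for 6 h, with 3 libraries in each of the 12 groups. βOHB differs from butyrate by a hydroxyl group on the third carbon. Whether the 3 libraries of a group came from separate animals or cultures is not stated, so that the spread between them may be technical.

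ATF4 is made from an mRNA whose translation rises when the initiation factor eIF2 is phosphorylated on its alpha subunit, which the kinases PERK, GCN2, PKR and HRI do in response to unfolded protein in the endoplasmic reticulum, amino acid shortage, viral RNA and haem shortage. ATF4 protein then drives genes for amino acid uptake and synthesis, for charging of transfer RNAs and for glutathione supply, together with the transcription factors ATF3 and CHOP (the product of Ddit3) and the brake TRIB3. Phosphorylation and translation are not measured by RNA-seq, which reports the mRNA level alone, and in cultures of mixed cells a lower level per cell cannot be told apart from fewer cells that express a gene.

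Library totals lay between 18366289 and 23221473 estimated counts, and levels are given as CPM, the share of all counts scaled to a common total, on TMM-scaled totals. The labelled cell types carried their own markers: all 5 adipocyte, 6 macrophage, 6 myotube and 6 hepatocyte markers exceeded 10 CPM on average in each group of their own cells. Transcripts that mark other cells were present in each cell type. The 6 hepatocyte markers summed to 29.1, 523 and 120.2 CPM in the 3 butyrate-treated myotube libraries and to at most 0.044 CPM in the myotube controls, with albumin (Alb) alone at 432 CPM in replicate 2, while 1 myotube library with βOHB held 22.5 CPM. The 6 macrophage markers summed to 264, 211 and 102 CPM in the myotube controls, to 55.5, 40.6 and 101 CPM with βOHB and to 14.1, 64.9 and 23.7 CPM with butyrate, against 271 to 318 CPM in the adipocyte, 88.2 to 112 CPM in the hepatocyte and 16459 to 16609 CPM in the macrophage controls. Fibroblast markers, led by Col1a1, summed to 3885 to 4419 CPM in the adipocyte, 1376 to 1461 CPM in the macrophage, 778 to 932 CPM in the myotube and 14.7 to 17.6 CPM in the hepatocyte controls. The 3 endothelial markers went with butyrate from 61.0 to 68.4 CPM down to 19.2 to 22.5 CPM in hepatocytes, from 167 to 192 CPM down to 109 to 128 CPM in adipocytes and from 3.43 to 4.59 CPM up to 8.09 to 14.8 CPM in myotubes, and overlapped in macrophages. The part of these markers in the butyrate results was not tested. Results in myotubes are therefore also given without the butyrate library highest in hepatocyte markers and the control library highest in macrophage markers, where that changed a call.

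ATF4 acts at C/EBP-ATF response elements (CARE), composite sites whose core TGATGNAA was searched on both strands in RefSeq windows of GRCm38.p6 that run from 250 bases before to 50 bases after each transcription start. Windows were given for 9 of the 10 genes. The core was found in 5 of them, Atf3, Asns, Trib3, Chac1 and Slc7a11, and in 3.97% of all 32817 windows. The cyclic AMP response element TGACGTCA, held by 1.79% of all windows, was in none of them, nor was the endoplasmic reticulum stress response element, held by 0.119%. The antioxidant response element core TGACNNNGC, held by 12.4% of all windows, was in those of Asns and Slc38a2. These are matches of letters in a short window, and no factor binding was measured. The stretches around the CARE cores are shown because these genes are set beside each other below. Each is written 5′ to 3′ on the strand of the gene with the core in capitals.
Atf3: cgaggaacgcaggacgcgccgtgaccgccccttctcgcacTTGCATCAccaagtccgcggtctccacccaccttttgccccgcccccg
Asns: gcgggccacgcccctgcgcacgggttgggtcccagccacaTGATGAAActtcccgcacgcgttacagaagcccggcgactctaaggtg
Trib3: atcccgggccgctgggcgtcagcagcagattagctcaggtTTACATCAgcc
Chac1: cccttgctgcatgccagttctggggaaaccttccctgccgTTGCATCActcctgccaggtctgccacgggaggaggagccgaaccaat
Slc7a11: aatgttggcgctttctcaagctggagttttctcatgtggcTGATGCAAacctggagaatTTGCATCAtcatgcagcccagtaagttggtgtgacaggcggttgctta

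The stretches lie upstream of or across the first bases of the transcript. That of Atf3 is chr1:191183396-191183483 on the minus strand, with the core beginning 110 bases before the start, and that of Chac1 is chr2:119351009-119351096 on the plus strand, with the core beginning 193 bases before it. In Asns (chr6:7693185-7693272, minus strand) the core begins 23 bases before the start, and in Trib3 (chr2:152344036-152344086, minus strand) it lies 14 bases past it. Slc7a11 (chr3:50443613-50443719, minus strand) was the member with a pair of cores, on opposite strands, beginning 66 and 47 bases before its start.

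In the PBS controls the 10 genes had different orders among the cell types. Hepatocytes had the highest mean CPM of Atf4, Trib3, Chac1 and Slc7a11, myotubes that of Asns, Slc38a2, Slc7a5 and Psat1, macrophages that of Atf3 and adipocytes that of Ddit3. The spread was widest for Atf3, an ATF/CREB family repressor and activator induced by many stresses: its controls read 157, 159 and 158 CPM in macrophages, 34.9, 37.1 and 33.9 in hepatocytes, 11.0, 9.35 and 10.2 in adipocytes and 10.5, 11.1 and 7.21 in myotubes. The highest and lowest means of Atf3 thus differed 16.4-fold, with no overlap except between adipocytes and myotubes.

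Trib3, a pseudokinase that binds ATF4 and CHOP and restrains them, followed with a span of 9.78-fold, from 44.7 ± 1.28 CPM (mean ± SD, n = 3) in hepatocytes through 20.9 ± 3.14 in adipocytes and 11.9 ± 1.01 in macrophages to 4.57 ± 0.619 in myotubes, with no overlap between neighbours. Slc7a11, the cystine-glutamate exchanger xCT, spanned 6.91-fold in the order hepatocytes (79.5 ± 6.31), macrophages (31.3 ± 1.07), adipocytes (17.7 ± 5.42) and myotubes (11.5 ± 1.89). The spans of Slc7a5, the leucine transporter LAT1, and Chac1, a glutathione-degrading enzyme, were 6.85-fold and 5.03-fold. For Chac1 the ranges of adipocytes and myotubes overlapped.

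The other genes had spans of at most 2.28-fold. Atf4 itself spanned 2.03-fold, from 270.3, 261 and 252 CPM in hepatocytes to 140.3, 125 and 121 in adipocytes, with macrophages (164, 166 and 167) and myotubes (150.0, 163 and 162) between them. Psat1 (serine synthesis) spanned 2.28-fold, Slc38a2 (the glutamine and alanine transporter SNAT2) 1.68-fold, Asns (asparagine synthetase) 1.46-fold and Ddit3 1.36-fold. The ranges of neighbours overlapped for Ddit3 between adipocytes and myotubes and between myotubes and macrophages, for Asns between myotubes and adipocytes, and for Slc38a2 between adipocytes and hepatocytes. These levels depend on the scaling: on library totals alone the order of the cell types stayed as given for each of the 10 genes, but hepatocyte levels were lower (Atf4 224 against 261 CPM, Slc38a2 176.5 against 206, Psat1 71.7 against 83.6). The ranges of Slc38a2 in adipocytes and hepatocytes then lay apart, and those of Psat1 in hepatocytes and macrophages, apart on TMM-scaled totals, overlapped. The cell types were kept in different media, and the hepatocytes came from another substrain, so that differences in level between cell types cannot be told apart from these. Per kilobase of annotated exon, the scale on which genes can be set beside each other, Atf4 was highest of the 10 in hepatocytes at 111 CPM per kb and Slc7a11 lowest in myotubes at 0.827. The exon length of Slc7a11 is the union of long isoforms, which lowers its value on that scale.

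**Figure D1:**
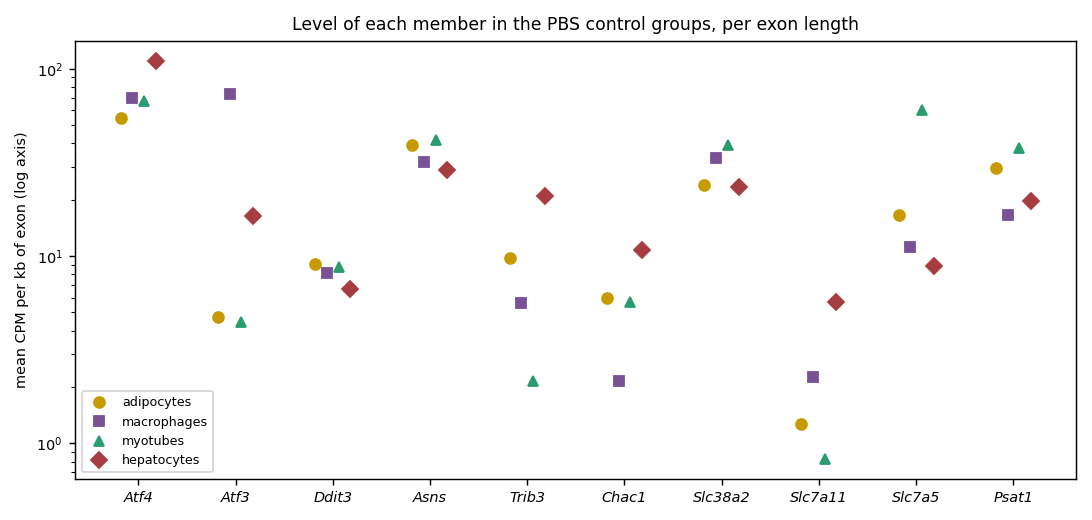
Mean CPM per kilobase of exon of each gene (log axis) in the 4 control groups, 1 point per cell type from 3 libraries. Atf4 sits at the top of the plot in every cell type except macrophages, where Atf3 (73.4 CPM per kb) lies just above it (70.3).

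Under butyrate Atf4, Slc38a2 and Slc7a11 fell in all 4 cell types and Slc7a5 rose in all 4, at an adjusted p under 0.05 of edgeR's quasi-likelihood test over all genes. Atf3 and Chac1 rose in some cell types and fell in others, Ddit3 rose in 2, Asns and Trib3 fell in 2, and Psat1 passed in none. In adipocytes 2 of the 10 genes rose and 4 fell, where 30.7% and 30.3% of all tested genes did so. The counts were 1 and 6 in macrophages (all genes 31.9% and 33.2%), 3 and 4 in myotubes (33.1% and 33.4%) and 4 and 5 in hepatocytes (31% and 32.4%). Most expressed genes passed the threshold, and nothing is read from these counts. With library totals in place of TMM the all-gene median of the log2 fold changes moved to 0.20 in macrophages and 0.13 in myotubes, and the share of calls that were rises went from 49% to 66.7% and from 49.8% to 61.8%. In adipocytes the median moved to 0.07 and the share from 50.4% to 58.8%. In hepatocytes the median moved to 0.01 and the share from 48.9% to 53.7%. Values of the genes in each cell type are to be read relative to these shifts.

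Atf4 mRNA, the message of the factor that names the pathway, fell in all 4 cell types. Adipocytes read 140.3, 125 and 121 CPM in the controls and 62.9, 59.7 and 66.9 with butyrate. Macrophages went from 164, 166 and 167 to 92.4, 88.6 and 92.1 and myotubes from 150.0, 163 and 162 to 87.5, 85.5 and 76.8. All 9 treated libraries of these cells lay below all controls of their kind. Hepatocytes, with the most Atf4, read 270.3, 261 and 252 in the controls and 146, 148 and 138 with butyrate, again without overlap. The log2 fold changes (± SE of the fit) were -1.02 ± 0.06 in adipocytes, -0.86 ± 0.06 in macrophages, -0.93 ± 0.06 in myotubes and -0.86 ± 0.06 in hepatocytes.

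Atf3 went in opposite directions. Hepatocytes rose from 34.9, 37.1 and 33.9 CPM to 189.6, 196 and 195, a log2 fold change of 2.46 ± 0.10 or 5.48-fold. Adipocytes rose from 11.0, 9.35 and 10.2 to 20.3, 19.0 and 20.1 (0.96 ± 0.11) and myotubes from 10.5, 11.1 and 7.21 to 22.4, 20.7 and 17.4 (1.07 ± 0.11). Macrophages, which held the most Atf3 untreated, were the exception. Their libraries fell from 157, 159 and 158 to 91.1, 91.3 and 93.9 (-0.78 ± 0.09), so that treated hepatocytes exceeded every macrophage library.

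Ddit3, which encodes CHOP, a C/EBP family factor tied to stress-induced cell death, rose in hepatocytes from 12.9, 12.5 and 8.75 CPM to 29.6, 28.4 and 28.2 (1.34 ± 0.15 log2). In myotubes it rose from 15.4, 15.7 and 13.8 to 21.2, 19.3 and 32.8 (0.71 ± 0.14), with the third treated library apart from the other two. That library also had the lowest sum of myotube markers (14905 CPM against 20879 and 21060) and the highest of fibroblast (1164 against 846 and 875) and endothelial markers (14.8 against 8.79 and 8.09), whose part in the value was not tested, while the second was highest in hepatocyte markers. The rise passed the threshold with any 1 library left out, at 0.45 without the third treated library and up to 0.86 otherwise. The adipocyte libraries went from 16.6, 15.2 and 14.7 to 20.6, 17.6 and 20.0 without overlap (0.32 ± 0.14) and did not pass in the main fit, whereas limma-voom (0.32), DESeq2 (0.34), RLE factors (0.34), library totals (0.41), no filter (0.28), the adipocyte libraries alone (0.33), a replicate block (0.32) and the fit without butyrate replicate 2 (0.39) called them. In macrophages, with 14.3, 14.3 and 13.1 and 12.5, 11.3 and 14.5, the groups overlapped (-0.13 ± 0.15). The 3′ end of Ddit3 (chromosome 10, 127290774 to 127296288, plus strand, GRCm38) overlaps that of Mars1 (from 127296221, minus strand), and since the strand setting of the counting is not stated, reads there cannot be told apart.

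Trib3 fell in hepatocytes and macrophages. In hepatocytes it went from 46.1, 43.6 and 44.4 CPM to 24.2, 24.5 and 21.4 (-0.93 ± 0.10 log2) and in macrophages from 11.1, 13.1 and 11.6 to 6.26, 6.16 and 6.55 (-0.91 ± 0.12). Adipocytes read 24.3, 18.2 and 20.1 and 20.0, 20.6 and 21.8 (-0.01 ± 0.11). The myotube libraries, at 4.54, 5.2 and 3.96 and 3.25, 3.52 and 4.34, overlapped (-0.31 ± 0.15), and passed with no filter on low counts (-0.37) and with control replicate 3 (-0.40) or butyrate replicate 3 (-0.42) left out.

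Chac1, whose product cleaves glutathione, rose in hepatocytes from 17.4, 18.0 and 17.7 CPM to 31.8, 31.1 and 31.3 (0.82 ± 0.09 log2). In adipocytes it fell from 10.2, 8.88 and 10.3 to 6.7, 6.55 and 7.0 (-0.54 ± 0.10) and in myotubes from 9.63, 9.12 and 9.11 to 7.04, 5.99 and 7.65 (-0.43 ± 0.10), with no overlap in any of the 3 cell types. The macrophage values of 3.98, 3.43 and 3.16 and 3.22, 3.08 and 3.13 overlapped (-0.17 ± 0.13). In hepatocytes Atf3, Ddit3 and Chac1 thus rose in the same libraries in which Atf4 and Trib3 fell.

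Of the 2 biosynthetic enzyme genes, Asns passed in 2 cell types and Psat1 in none. Asns, which makes asparagine from aspartate and glutamine, fell in macrophages from 87.3, 87.4 and 86.5 CPM to 64.2, 65.7 and 65.6 (-0.42 ± 0.06 log2) and in hepatocytes from 76.6, 78.0 and 80.5 to 66.5, 62.5 and 69.5 (-0.25 ± 0.06). Neither adipocytes, with 115, 106 and 102 and 108, 125 and 116 (0.11 ± 0.06), nor myotubes, with 109, 121 and 112 and 128, 119.6 and 112 (0.07 ± 0.06), passed. The adipocyte difference was called with DESeq2 (0.13), with library totals (0.20) and with butyrate replicate 1 or control replicate 1 left out (0.16 each), and the myotube difference with library totals (0.21). Psat1, the transaminase of serine synthesis, gave 0.07 ± 0.08 in adipocytes, 0.12 ± 0.08 in macrophages, -0.03 ± 0.07 in myotubes and 0.08 ± 0.08 in hepatocytes. Its treated libraries overlapped the controls except in macrophages (73.1, 67.6 and 69.8 against 76.9, 74.0 and 78.6 CPM), which passed when the macrophage libraries were fitted alone (0.16) and with library totals (0.35).

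The 3 transporter genes passed in all 4 cell types. Slc38a2, which brings in small neutral amino acids with sodium and is known to rise in amino acid shortage, fell by more than its replicate spread in every cell type. Adipocytes went from 221, 205 and 211 CPM to 94.4, 94.9 and 92.4 (-1.18 ± 0.06 log2) and macrophages from 301, 285 and 297 to 158, 159 and 153 (-0.91 ± 0.06). Myotubes went from 323, 351 and 362 to 199, 233 and 182 (-0.75 ± 0.06) and hepatocytes from 192, 211 and 214 to 94.9, 97.0 and 99.3 (-1.08 ± 0.07). In none of the 4 did treated and control libraries overlap.

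Slc7a11, which exchanges glutamate for the cystine that glutathione synthesis needs, had the largest fall of any of the 10 genes: in macrophages it went from 31.9, 31.9 and 30.1 CPM to 7.91, 6.63 and 7.27 (-2.11 ± 0.24 log2, 4.31-fold lower). Hepatocytes fell from 72.4, 84.6 and 81.4 to 28.3, 31.7 and 32.0 (-1.37 ± 0.21) and adipocytes from 23.9, 14.6 and 14.6 to 8.18, 4.78 and 6.37 (-1.47 ± 0.25). The fall in myotubes, from 12.5, 9.34 and 12.7 to 6.1, 6.59 and 10.1 (-0.60 ± 0.25), was the smallest of the 4, and the groups overlapped. It no longer passed with butyrate replicate 1 or 2 or control replicate 1 or 3 left out (-0.46, -0.51, -0.54 and -0.53), without the pair of myotube libraries that held most hepatocyte and macrophage transcripts (-0.45) or with library totals alone (-0.47).

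Slc7a5, the large neutral amino acid transporter that supplies leucine in complex with Slc3a2, rose in every cell type. Myotubes, with the highest level, went from 219, 234 and 221 CPM to 398, 363 and 329 (0.69 ± 0.09 log2) and adipocytes from 74.6, 54.4 and 55.1 to 118, 106 and 121 (0.91 ± 0.10). Macrophages went from 43.7, 39.9 and 41.0 to 55.2, 69.0 and 61.0 (0.57 ± 0.10) and hepatocytes from 33.7, 31.6 and 33.1 to 58.6, 54.9 and 58.5 (0.81 ± 0.10). All treated libraries exceeded all controls of their cell type. Its partner Slc3a2 was set beside it after the values were seen. Slc3a2 passed as lower in adipocytes (-0.35 ± 0.07 log2), macrophages (-0.84 ± 0.07) and hepatocytes (-1.65 ± 0.07). It did not pass in myotubes (-0.15 ± 0.07), although it did with butyrate replicate 1 left out (-0.18) and with no filter on low counts (-0.21).

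**Figure D2:**
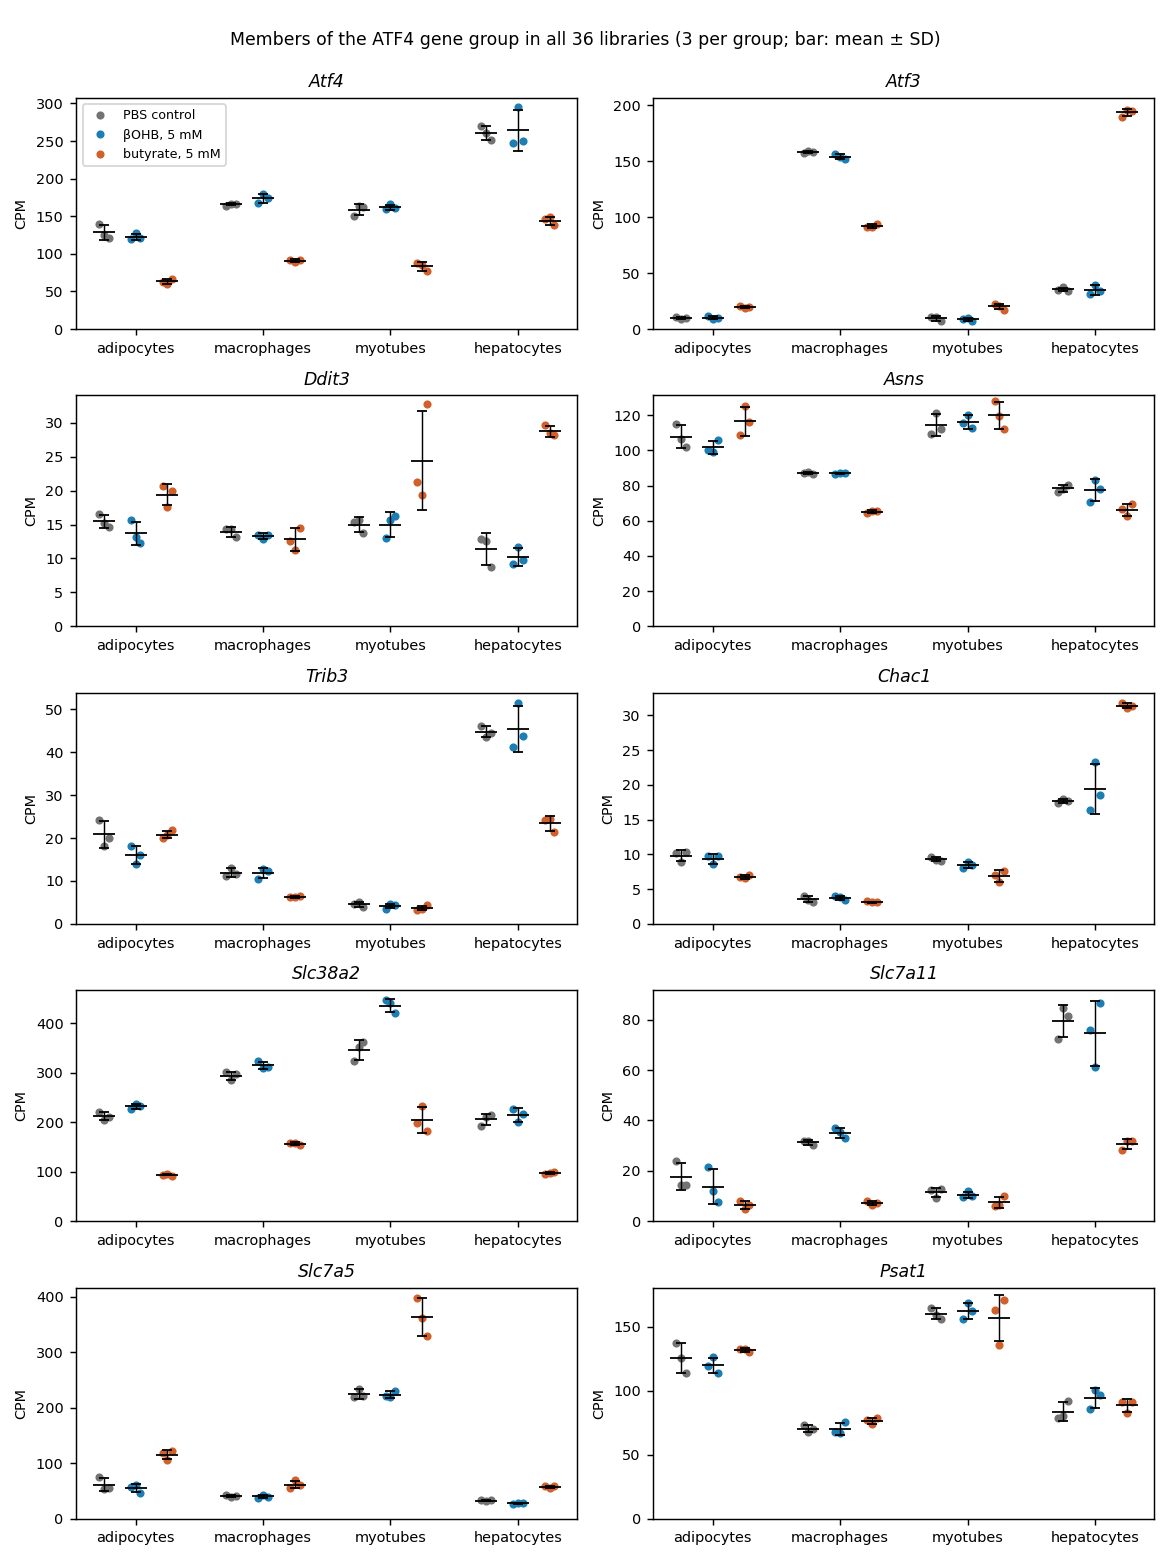
CPM (linear axis from 0) of the 10 genes in all 36 libraries, 1 point per library, by cell type and treatment, with the mean ± SD of 3 libraries. Butyrate-treated points lie below the controls for Atf4 and Slc38a2 and above them for Slc7a5 in all 4 cell types, whereas Atf3 is highest in butyrate-treated hepatocytes (189.6 to 196 CPM).

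The butyrate response itself was compared between cell types with an interaction term over the 4 responses. It passed for 7 of the 10 genes, against 74.5% of all tested genes. The response of Atf3 ranged over 3.23 log2 units, from macrophages to hepatocytes, and that of Slc7a11 over 1.50, from macrophages to myotubes. Ddit3 ranged over 1.46 and Chac1 over 1.36, both highest in hepatocytes, Trib3 over 0.92, Asns over 0.53 and Slc38a2 over 0.42. For Atf4, Slc7a5 and Psat1 the 4 responses did not differ at the threshold, with ranges of 0.17, 0.34 and 0.15. With library totals alone the range of Atf4 was 0.29 and passed, and that of Slc7a5 passed with no filter on low counts (0.31) and without adipocyte control replicate 1 (0.50). The 5 genes with a CARE core in the printed stretches (Atf3, Asns, Trib3, Chac1 and Slc7a11) had hepatocyte responses from -1.37 ± 0.21 to 2.46 ± 0.10.

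With βOHB a single gene passed, in a single cell type. Of the 10 genes, 1 passed the threshold in myotubes and 0 in adipocytes, macrophages and hepatocytes, beside 2.91%, 0.00652%, 0% and 0.00652% of all tested genes. At an unadjusted p under 0.05 in edgeR's test there were 2 in adipocytes, 0 in macrophages, 1 in myotubes and 2 in hepatocytes, where 7.15%, 2.33%, 13.7% and 5.51% of all genes reached it, and neither limma-voom nor DESeq2 called any of the 10 outside myotubes. The 3 treated values were all above or all below the 3 control values for 2 genes in adipocytes, 4 in macrophages, 2 in myotubes and 1 in hepatocytes. That was so for 12.7%, 11.1%, 22.9% and 6.71% of all genes. The interaction test called 0 of the 10 responses to βOHB as different between the cell types, and 0.978% of all genes passed it. At an unadjusted p under 0.05 edgeR's test held 1 of the 10 genes (8.26% of all genes), and limma-voom's 2 (9.05% of all genes), of which it called none (0.567% of all genes).

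The exception was Slc38a2 in myotubes, which rose with βOHB and fell with butyrate. The controls read 323, 351 and 362 CPM, the βOHB libraries 446, 439.8 and 420.5 and the butyrate libraries 199, 233 and 182, with no overlap among the 3 groups. The log2 fold change with βOHB was 0.33 ± 0.06 (1.26-fold). It passed in each fit with 1 library left out (0.29 to 0.37) and without the pair of libraries rich in other cells' transcripts (0.29), and did not pass when the 9 myotube libraries were fitted alone (0.31). In adipocytes the βOHB libraries of Slc38a2 (228, 237 and 233) and in macrophages (323, 310.0 and 312) also exceeded their controls, without passing (0.13 ± 0.06 and 0.10 ± 0.06). Hepatocytes gave 0.06 ± 0.06 with overlap.

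Among the other genes Trib3 had the largest log2 fold change with βOHB, -0.37 ± 0.11 in adipocytes, where 24.3, 18.2 and 20.1 CPM in the controls stood against 18.1, 14.0 and 16.1. It passed only in the fit with no filter on low counts. Slc7a11 in adipocytes gave -0.35 ± 0.23 over a wide spread of libraries (21.4, 12.2 and 7.84). Slc7a5 in hepatocytes gave -0.23 ± 0.11, with 27.0, 28.5 and 28.1 CPM below all controls. Atf4 gave -0.07 ± 0.06 in adipocytes and 0.07 ± 0.06 in macrophages, and the 95% interval of its log2 change with βOHB was -0.10 to 0.14 in hepatocytes.

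**Figure D3:**
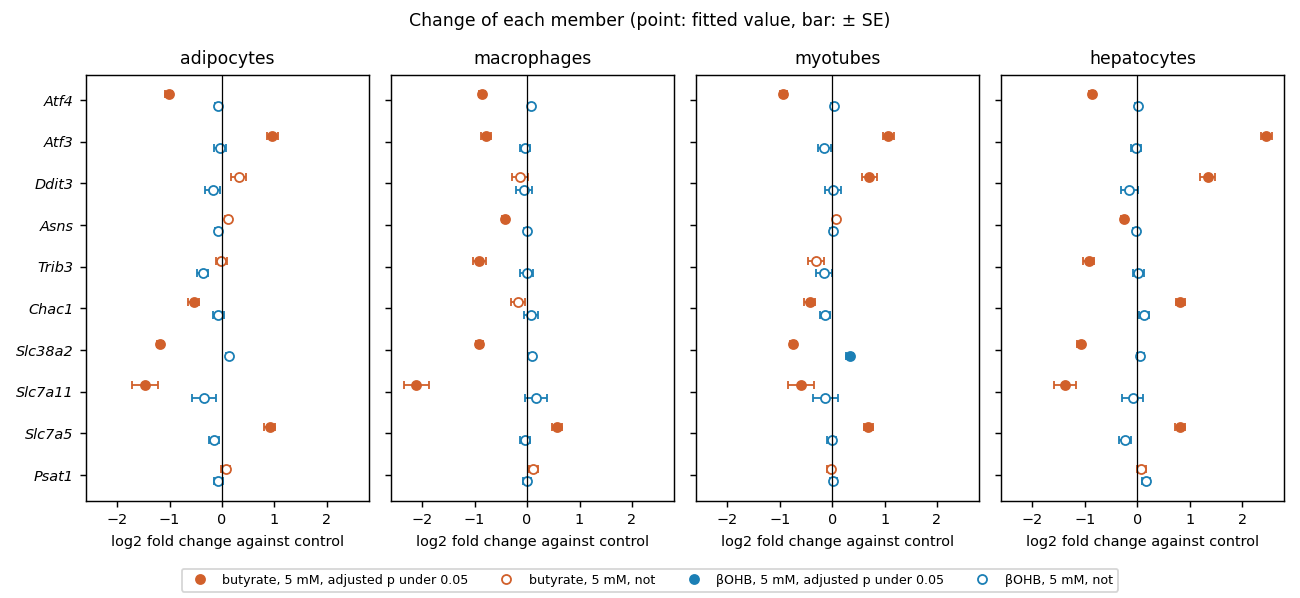
Log2 fold change against control (point) ± SE (bar) of each gene with butyrate (orange) and βOHB (blue) in the 4 cell types. Filled points passed an adjusted p under 0.05. Orange points spread from -2.11 (Slc7a11 in macrophages) to 2.46 (Atf3 in hepatocytes), and the single filled blue point is Slc38a2 in myotubes.

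The compounds were also set against each other directly at the same 5 mM and 6 h, in 40 comparisons of 10 genes in 4 cell types. Butyrate and βOHB differed at the threshold for 9 genes in adipocytes, 7 in macrophages, 6 in myotubes and 9 in hepatocytes, and for 59.5%, 64.7%, 66% and 63.5% of all genes. Atf4 was lower with butyrate than with βOHB, with log2 differences of -0.96 ± 0.06, -0.94 ± 0.06, -0.96 ± 0.06 and -0.87 ± 0.06 in adipocytes, macrophages, myotubes and hepatocytes. For Slc38a2 the differences were -1.31 ± 0.06, -1.01 ± 0.06, -1.09 ± 0.06 and -1.15 ± 0.07. Slc7a5 went the other way, with 1.06 ± 0.10, 0.62 ± 0.10, 0.70 ± 0.09 and 1.04 ± 0.10 in the same order. Atf3 was higher with butyrate in adipocytes (0.99 ± 0.11), myotubes (1.22 ± 0.12) and hepatocytes (2.48 ± 0.10) and lower in macrophages (-0.74 ± 0.09).

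Where the pair did not differ at the threshold, the intervals were narrow for some genes and wide for others. Psat1 did not pass in any cell type, with 95% intervals of -0.01 to 0.29 in adipocytes, -0.03 to 0.28 in macrophages, -0.20 to 0.10 in myotubes and -0.24 to 0.06 in hepatocytes. It was called with library totals in adipocytes (0.26) and macrophages (0.35) and with the macrophage libraries fitted alone (0.16). The interval of Asns in myotubes was -0.07 to 0.16 and that of Slc7a11 in myotubes -0.98 to 0.02. Asns there was called with library totals (0.24), and Slc7a11 with no filter (-0.51), a replicate block (-0.49) and without butyrate replicate 3 (-0.72). Asns in adipocytes was not called with no filter (0.16). Chac1 in myotubes (-0.30 ± 0.11) passed in the main fit but not with DESeq2, with library totals alone, with the 9 myotube libraries fitted alone, without the pair of libraries rich in other cells' transcripts (-0.20), or with βOHB replicate 2 or butyrate replicate 2 left out (-0.26 and -0.20). In adipocytes Ddit3 (0.50 ± 0.15), Asns (0.19 ± 0.06) and Trib3 (0.37 ± 0.11) differed between the compounds although none of them passed for either compound against the shared control.

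The rest of the pathway was described from 7 gene lists with 96 tested genes, chosen with results of these data known and holding none of the 10. The 53 tested genes of 4 lists linked to ATF4 (amino acid and one-carbon enzymes, amino acid transporters, aminoacyl-tRNA synthetases, and other ATF4 and CHOP linked genes) moved in both directions under butyrate. In adipocytes 18 rose and 19 fell (all genes 30.7% and 30.3%), with a median log2 fold change of -0.01. In macrophages 17 rose and 18 fell (all genes 31.9% and 33.2%, median of the list 0.08), and in myotubes 15 rose and 19 fell (all genes 33.1% and 33.4%, median of the list -0.03). In hepatocytes 14 rose and 27 fell (all genes 31% and 32.4%, median of the list -0.19). The median over all tested genes was 0.00 in the first 3 cell types and -0.01 in hepatocytes. The counts of the single lists stand beside the same all-gene shares, and no list was tested against other genes.

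The aminoacyl-tRNA synthetases, which charge transfer RNAs with their amino acids, are the longest of these lists. Of 20, 9 fell in adipocytes, 8 in macrophages, 10 in myotubes and 12 in hepatocytes, while 4, 7, 1 and 4 rose, where between 30.3% and 33.4% of all genes fell and between 30.7% and 33.1% rose. The medians of the list in that order of cell types were -0.06, 0.03, -0.17 and -0.25. Aars, Dars, Farsa and Lars fell in all 4 cell types and Kars rose in all 4, its adipocyte call being lost without butyrate replicate 2 or control replicate 2 (0.11 each). The changes were small, and the largest were Dars in adipocytes (-0.71 ± 0.07, adjusted p = 1e-10 by edgeR), Aars in macrophages (-0.64 ± 0.06, adjusted p = 9.5e-11 by edgeR), Farsa in myotubes (-0.62 ± 0.06, adjusted p = 5.1e-10 by edgeR) and Sars in hepatocytes (-0.76 ± 0.05, adjusted p = 3e-13 by edgeR) among those that fell. Cars in adipocytes (0.66 ± 0.07) and Kars in macrophages (0.45 ± 0.05) rose most in those cells, as did Kars in myotubes (0.16 ± 0.05) and Farsb in hepatocytes (0.28 ± 0.05).

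Among the 11 amino acid and one-carbon enzymes 6 rose and 0 fell in adipocytes, 5 and 3 in macrophages, 6 and 2 in myotubes and 4 and 4 in hepatocytes, beside 30.7% to 33.1% of all genes higher and 30.3% to 33.4% lower (medians 0.39, 0.14, 0.26 and -0.11). Cbs, the cystathionine synthase of transsulfuration, rose in all 4, by 1.24 ± 0.21 in adipocytes and 0.63 ± 0.14 in hepatocytes. In myotubes it went from 0.122 ± 0.174 to 1.98 ± 1.05 CPM and in macrophages from 0.0789 ± 0.0626 to 1.57 ± 0.382, levels of a few counts per control library from which no fold is given. Cbs is at 129 ± 2.78 CPM in hepatocyte controls, and the myotube libraries with butyrate held hepatocyte transcripts. The part of these in its level was not tested. Got1, the cytosolic aspartate transaminase, also rose in all 4, most in hepatocytes (1.42 ± 0.09, adjusted p = 4.4e-15 by edgeR). Gpt2, an alanine transaminase, rose in adipocytes (1.24 ± 0.08), macrophages (0.89 ± 0.09) and myotubes (0.52 ± 0.08) and fell in hepatocytes (-0.85 ± 0.08). Mthfd2, a mitochondrial folate enzyme, fell in macrophages (-0.88 ± 0.08), myotubes (-0.39 ± 0.08) and hepatocytes (-0.73 ± 0.09) and gave -0.15 ± 0.08 in adipocytes, where it passed without control replicate 3 (-0.24).

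The transporter list, with 7 of 8 genes tested, had 3 genes higher and 4 lower in adipocytes, 2 and 4 in macrophages, 3 and 1 in myotubes and 2 and 3 in hepatocytes, where all genes had 30.7% to 33.1% higher and 30.3% to 33.4% lower. Its medians were -0.18, -0.39, -0.07 and 0.10. Slc1a5, a glutamine transporter, rose in all 4, most in myotubes (1.93 ± 0.09, adjusted p = 1e-17 by edgeR) and by 0.86 ± 0.13 in hepatocytes. Slc1a4, which carries alanine and serine, rose in adipocytes (1.25 ± 0.10), macrophages (0.85 ± 0.10) and myotubes (1.03 ± 0.10). Slc7a1, a cationic amino acid transporter, fell in all 4, with -0.46 ± 0.07 in myotubes and -1.05 ± 0.09 in hepatocytes. Slc43a1, a carrier of large neutral amino acids, fell in adipocytes (-0.99 ± 0.20) and macrophages (-0.97 ± 0.40) and rose in myotubes (1.43 ± 0.36), from 0.519 ± 0.128 to 1.41 ± 0.334 CPM. Its macrophage call was lost with butyrate replicate 1 or 2 or control replicate 1 or 3 left out (-0.71 to -0.88), and that of Slc7a1 in adipocytes (-0.18 ± 0.07) with butyrate replicate 2 or control replicate 1 or 2 left out (-0.11, -0.13 and -0.18). In each cell type the members of this list, like Slc38a2 and Slc7a5 above, went both ways.

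Of 15 other ATF4 and CHOP linked genes, 5 rose and 6 fell in adipocytes, 3 and 3 in macrophages, 5 and 6 in myotubes and 4 and 8 in hepatocytes, with medians of -0.01, 0.18, 0.03 and -0.35. The all-gene shares were 30.7% to 33.1% higher and 30.3% to 33.4% lower. Ero1l, an oxidase of the endoplasmic reticulum that CHOP is known to induce, rose in all 4, from 121 ± 18.1 to 854 ± 82.1 CPM in hepatocytes (2.81 ± 0.18, adjusted p = 1.3e-14 by edgeR), and by 1.16 ± 0.17 in macrophages and 0.75 ± 0.17 in myotubes. Atf5, a sister factor of Atf4, fell in all 4, from 726 ± 25.5 to 203 ± 10.5 CPM in hepatocytes (-1.84 ± 0.09, adjusted p = 1e-17 by edgeR) and with -1.45 ± 0.09 in macrophages. Ddit4, an inhibitor of mTORC1 signalling, rose in adipocytes (1.44 ± 0.15) and hepatocytes (0.69 ± 0.15). It rose in myotubes too (0.45 ± 0.17), a call lost with butyrate replicate 3 or control replicate 2 or 3 left out (0.37 to 0.44). The stress cytokine Gdf15 fell in adipocytes (-0.87 ± 0.18) and hepatocytes (-0.54 ± 0.16) and rose in myotubes (0.73 ± 0.21), where it did not pass without butyrate replicate 3 (0.43). The death gene Bbc3 fell in myotubes (-1.17 ± 0.13), adipocytes (-0.64 ± 0.12) and hepatocytes (-1.37 ± 0.12). Eif4ebp1, a repressor of translation, fell in all 4, with -0.91 ± 0.07 in hepatocytes. Fgf21, a hormone gene under ATF4 control, was named after its values were seen. It rose in adipocytes (1.03 ± 0.31) and fell in myotubes from 19.8 ± 0.659 to 9.77 ± 0.865 CPM (-1.02 ± 0.13). Its values in macrophages and hepatocytes are not reported here.

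Upstream of ATF4, 14 genes for the eIF2 kinases, phosphatase subunits and eIF2B also moved in both directions: 3 rose and 8 fell in adipocytes, 3 and 6 in macrophages, 4 and 7 in myotubes and 4 and 5 in hepatocytes. Of all genes 30.7% to 33.1% were higher and 30.3% to 33.4% lower, and the medians of the list were -0.20, -0.14, -0.17 and -0.09. Eif2ak4, the amino acid sensor GCN2, rose in all 4 (0.47 ± 0.07, 0.34 ± 0.06, 0.21 ± 0.07 and 0.70 ± 0.07 in adipocytes, macrophages, myotubes and hepatocytes), although its myotube call was lost without butyrate replicate 3 or control replicate 2 or 3 (0.17 to 0.19). Eif2ak3, the endoplasmic reticulum sensor PERK, rose in macrophages (0.73 ± 0.09), myotubes (0.49 ± 0.10) and hepatocytes (0.52 ± 0.09) and gave 0.21 ± 0.09 in adipocytes, where it passed without control replicate 2 (0.25) and in DESeq2 (0.22) and limma-voom (0.21). Impact, an inhibitor of GCN2 activation, fell in adipocytes (-1.57 ± 0.10, adjusted p = 1.3e-14 by edgeR), macrophages (-1.10 ± 0.09) and myotubes (-0.98 ± 0.10) and gave -0.07 ± 0.11 in hepatocytes.

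The kinase PKR (Eif2ak2), which senses double-stranded RNA, fell in adipocytes (-0.53 ± 0.16) and hepatocytes (-0.77 ± 0.18), the former not without butyrate replicate 2 or control replicate 1 (-0.41 and -0.37). Ppp1r15a, the inducible phosphatase subunit GADD34 that reverses eIF2 phosphorylation, fell in myotubes from 34.0 ± 1.52 to 17.1 ± 0.709 CPM (-0.99 ± 0.09, adjusted p = 3.6e-11 by edgeR) and in macrophages (-0.26 ± 0.09), and gave -0.09 ± 0.09 in adipocytes and 0.00 ± 0.09 in hepatocytes. Its constitutive relative Ppp1r15b fell in all 4, as did the eIF2B subunit Eif2b1. The macrophage call of Ppp1r15a was lost without butyrate replicate 1 or 3 (-0.21 and -0.22).

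Unfolded protein also acts through ATF6 and XBP1. Of 19 genes of those branches 8 rose and 4 fell in adipocytes, 7 and 3 in macrophages, 5 and 5 in myotubes and 8 and 5 in hepatocytes (medians 0.12, 0.14, 0.03 and 0.12), against 30.7% to 33.1% of all genes higher and 30.3% to 33.4% lower. Hspa5, the chaperone BiP, rose in hepatocytes from 1390.4 ± 138 to 2093 ± 38.9 CPM (0.59 ± 0.10, adjusted p = 1.1e-05 by edgeR) and gave -0.14 ± 0.10, 0.07 ± 0.10 and 0.14 ± 0.10 in adipocytes, macrophages and myotubes. Xbp1 fell in all 4 (-1.06 ± 0.06, -0.61 ± 0.06, -0.75 ± 0.06 and -1.65 ± 0.06), whereas Ern1, which encodes the sensor IRE1 that splices its mRNA, rose in all 4 (0.89 ± 0.07, 0.95 ± 0.07, 0.73 ± 0.07 and 1.14 ± 0.07). Atf6 rose in macrophages (1.01 ± 0.08), adipocytes (0.34 ± 0.08) and hepatocytes (0.74 ± 0.08), and in myotubes gave 0.10 ± 0.07, passing without butyrate replicate 3 (0.22) and with library totals alone (0.24). Herpud1, a factor of protein degradation at the endoplasmic reticulum, fell in all 4, with -0.69 ± 0.07 in macrophages, and Sel1l, which acts in the same degradation, rose in all 4, with 1.13 ± 0.06 in hepatocytes.

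The antioxidant factor NRF2 shares targets such as Slc7a11 with ATF4. Of 10 NRF2 targets and regulators 1 rose and 3 fell in adipocytes, 3 and 4 in macrophages, 4 and 3 in myotubes and 1 and 6 in hepatocytes (medians -0.26, -0.04, 0.20 and -0.73). The shares of all genes were again 30.7% to 33.1% higher and 30.3% to 33.4% lower. Keap1, the inhibitor of NRF2, fell in all 4, most in hepatocytes (-1.64 ± 0.07, adjusted p = 1.3e-18 by edgeR) and with -0.99 ± 0.07 in myotubes. Glutathione reductase (Gsr) also fell in all 4, most in hepatocytes (-1.06 ± 0.07) and adipocytes (-1.03 ± 0.08). Osgin1 rose in adipocytes (1.02 ± 0.11), macrophages (1.33 ± 0.10) and myotubes (0.38 ± 0.09) and fell in hepatocytes (-1.07 ± 0.08). Srxn1, which reactivates peroxiredoxins, rose in myotubes from 60.2 ± 8.46 to 121 ± 51.3 CPM (1.01 ± 0.18), with 0.61 without butyrate replicate 3, and in hepatocytes (0.41 ± 0.17), where the call was lost with any butyrate replicate or control replicate 2 or 3 left out (0.33 to 0.43). Nqo1 fell in macrophages (-0.90 ± 0.35, adjusted p = 0.025 by edgeR) and hepatocytes (-1.19 ± 0.27), the former not without butyrate replicate 2 or 3 or control replicate 3 (-0.77 to -0.86). The fall of Gsr in myotubes (-0.21 ± 0.08) was lost without butyrate replicate 1 or control replicate 1 or 3 (-0.15 to -0.19) and in DESeq2 (-0.18).

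**Figure D4:**
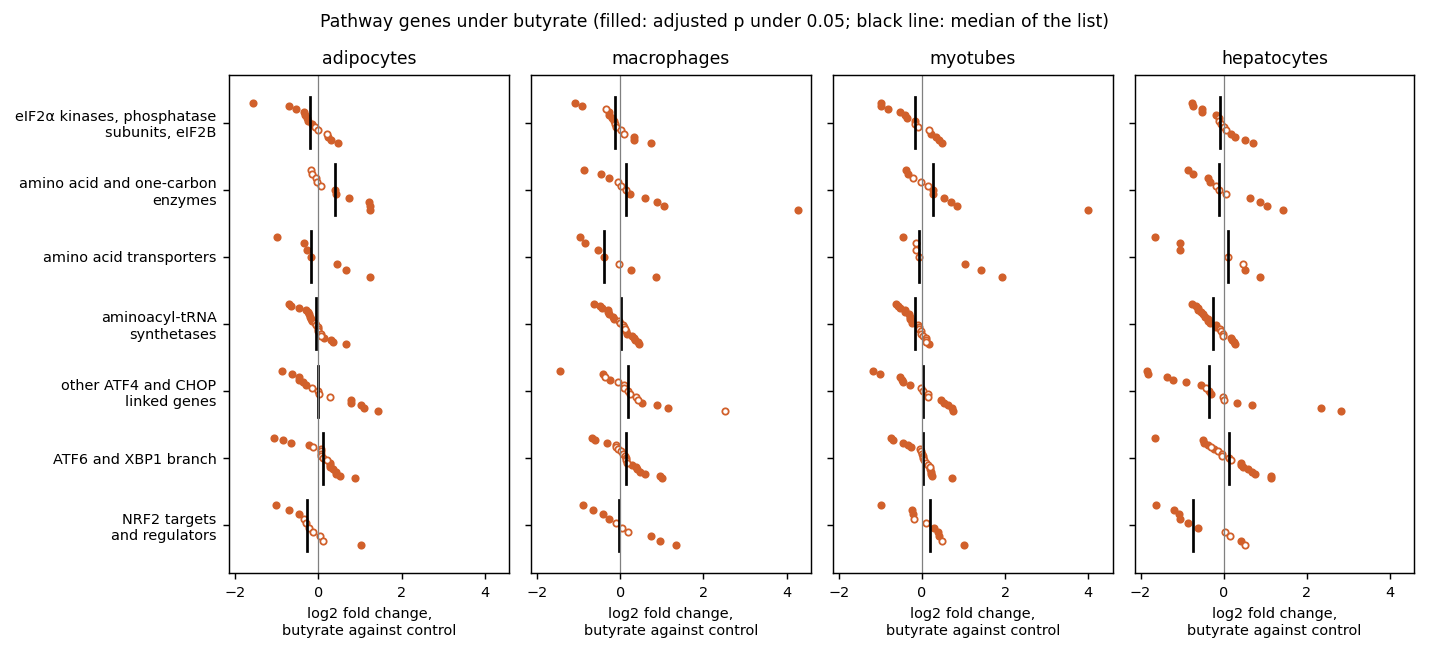
Log2 fold change with butyrate of every tested gene of the 7 lists, 1 point per gene, in the 4 cell types. Filled points passed an adjusted p under 0.05, the black line is the median of the list, and in each list and cell type points lie on both sides of 0. Cbs, the farthest right in macrophages and myotubes, had only a few counts in those controls.

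With βOHB edgeR's test called 0 of the 96 list genes in any cell type. At an unadjusted p under 0.05 there were 14 in adipocytes, 4 in macrophages, 7 in myotubes and 1 in hepatocytes, beside 7.15%, 2.33%, 13.7% and 5.51% of all genes. The 3 treated libraries lay on 1 side of the controls for 13, 15, 31 and 2 of the 96 genes in that order of cell types, beside 12.7%, 11.1%, 22.9% and 6.71% of all genes. In myotubes these 31 were 15 above and 16 below. The ATF6 and XBP1 list, singled out after its values were seen, held 11 of them. These were 2 above and 9 below of its 19 genes, of which edgeR called 0. Its median was -0.11 against 0.02 over all genes. The NRF2 list, with 0 above and 1 below of 10, had the same median of -0.11 there. In myotubes limma-voom called 1 (2.3% of all genes) and DESeq2 called 2 (4.04%), which were Osgin1 with both tools and Manf, a secreted endoplasmic reticulum protein, with DESeq2, named after their values were seen. In edgeR's fit Osgin1 gave -0.30 ± 0.09 and Manf -0.27 ± 0.08 there.

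The genes most like each member over the 36 libraries were found by Pearson's r of log2 CPM after removal of each cell type's mean, as a description. The libraries share treatments, and butyrate moved most genes, so that high values are common. Atf4 was most like Inppl1 (r = 0.988), Vps51 (0.987) and Nup62 (0.986), and Slc38a2 most like Stag1, Eif4g2 and Smarcc1 (0.983 each). Slc7a5 followed 5031439G07Rik (0.967), Ttll12 (0.966) and Ipo13 (0.958), Slc7a11 followed Inhbb (0.941), Mdm2 (0.939) and Wwp2 (0.938), and Atf3 followed Mfsd12 (0.97), Gtf2b (0.968) and Tmem189 (0.964).

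Ddit3 was closest to Adam15 (0.939), Ifrd1 (0.936) and Slc25a25 (0.921), Asns to Acox3 (0.871), Zbtb21 (0.853) and Tpcn2 (0.837), and Chac1 to Sema7a (0.883) and Scarf2 (0.883). Trib3 was closest to Atp6v1f (0.925), Mthfd2 (0.912) and Lancl2 (0.885), of which Mthfd2 is itself on a pathway list. Psat1 had no close counterpart, with Vmp1 (0.56), Stoml1 (0.553) and Ttc30a1 (0.546). These used a prior count of 2, a constant added before the logarithm. With a prior count of 0.5 Scn4a (0.572) came first for Psat1, followed by Vmp1 and Stoml1. Among the members themselves the closest pairs were Atf4 with Slc38a2 (0.967) and Atf3 with Ddit3 (0.897), and Slc7a5 ran against Slc38a2 (-0.939) and Atf4 (-0.91).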

How the data were processed

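Gene-level estimated counts were deposited for 36 libraries. Per the labels and the study's methods, total RNA was sequenced with paired-end reads and quantified with Salmon 1.2.1 on GENCODE transcripts of GRCm38.p6, and the authors summed transcripts to genes. The strand setting is not given in the sources used here. Estimated counts were rounded. Genes with CPM above 1 in at least 6 libraries were kept (15340), scaled by TMM and tested with edgeR 4.0.16 (quasi-likelihood F test, R 4.3.3), with a mean for each of the 12 groups and Benjamini-Hochberg adjustment over all genes, threshold 0.05. CPM use TMM-scaled totals of the tested genes. The standard error of a log2 fold change is its size over the square root of F, and 95% intervals use the normal distribution. Gene positions come from GENCODE M21, promoter windows from RefSeq.

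The 10 genes and all gene lists were chosen with earlier results of these data known. From each list the text names, in each cell type, the largest rise and fall among called genes whose 3 treated libraries lie on 1 side of the 3 controls, and Eif2ak3, Eif2ak4, Ppp1r15a and Hspa5 always. Genes that moved alike in all 4 cell types and Slc3a2, as the partner of Slc7a5, were added after their values were seen. So were Fgf21, further cell types of a named gene, and the counts of the ATF6 and XBP1 list with βOHB in myotubes. For likeness of pattern the 3 genes with the highest r are named for each member, of which 1 is not reported here. Alternatives were limma-voom (limma 3.58.1), DESeq2 1.42.0, other scalings and filters, the 9 libraries of a cell type alone, a replicate block and each library left out. No repeated library was found: pairs of replicates differed by 2.68 to 45.0 chi-square per degree of freedom. Fits were tested on simulated data. The source labels of the butyrate samples name butyric acid but abbreviate it as βOHB, and their titles were followed.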

Additional observations from a re-analysis of the deposited data

Results flagged for a closer look

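The response to butyrate differed between the 4 cell types for 7 of the 10 genes in edgeR's interaction test, as it did for 74.5% of all tested genes. The range of the 4 log2 fold changes was 3.23 for Atf3, 1.5 for Slc7a11, 1.46 for Ddit3, 1.36 for Chac1, 0.92 for Trib3, 0.53 for Asns and 0.42 for Slc38a2. The cell types were kept in different media and the hepatocytes came from another substrain, and these cannot be told apart from cell type.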

How the results depend on the processing

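Counts of called genes stayed within 1.5 times the reported count in 177 of 179 comparisons of settings, and in all 168 fits that left out 1 library. With βOHB 1 member, Trib3, was called in adipocytes with no filter on low counts, and 0 in myotubes when the 9 myotube libraries were fitted alone. The causes were not tested. A single list gene turned its direction: Nqo1 with butyrate in myotubes, not called at 0.09, lay between -0.67 and 0.39 over the fits that left out 1 library, and was called at -0.67 without butyrate replicate 3. Equal replicate numbers were not treated as pairs in the main fit. Over 36 pairs the correlations of deviations ran from -0.264 to 0.273, with 4 over 0.1 and the own number best in 13. In adipocytes the own number was best in most pairs, and whether those libraries were paired is not stated. Between adipocyte controls and βOHB the correlations were 0.225, -0.107 and 0.167 for replicates 1, 2 and 3. With a replicate block 7, 7, 7 and 9 members were called for butyrate in adipocytes, macrophages, myotubes and hepatocytes, against 6, 7, 7 and 9 without it. Among the 10 genes Slc7a11 had the widest standard errors in each cell type (0.21 to 0.25 for butyrate), so that its folds are the least precise.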
